A study of Mus musculus with 10 samples.

Results

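Pax7, Tbx19, Pitx1, Neurod1, Isl1, Lhx3, Lhx4 and Insm1 encode transcription factors of the pituitary and of its melanotroph lineage, and were chosen by name, as factors known for these roles. All 8 were found among the 29527 genes measured, and 7 of them passed the filter on low values that left 17268 genes for testing. The mice were wild type (WT, n = 4), null for p27 (p27-/-, n = 3), or null for p27 with 1 inactive copy of Sox2 (p27-/-;Sox2+/-, n = 3), all 2 to 3 months old and of mixed genetic background. The paper lists both sexes in each genotype. Total RNA of the dissected intermediate lobe (IL) was sequenced, with 1 library per sample. Both mutations are present in every cell of the body, so that no cell type of the pituitary was spared. The question was how the genes of the lineage stood after p27 was lost, and after the dosage of Sox2 was lowered as well.

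The IL consists mainly of melanotrophs, endocrine cells that make pro-opiomelanocortin (POMC) and cut it into melanocyte-stimulating hormone. LHX3, LHX4, PITX1 and ISL1 act early, in the embryonic primordium of the pituitary, and TBX19 (also called TPIT) then drives Pomc in melanotrophs and in corticotrophs, the POMC cells of the anterior lobe (AL). PAX7 opens chromatin and selects the melanotroph over the corticotroph fate, NEUROD1 acts with PITX1 at the Pomc promoter in corticotrophs, and INSM1 is a zinc finger factor of endocrine cells. P27, the product of Cdkn1b, holds back cyclin-dependent kinases, and SOX2 marks pituitary stem cells.

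The promoters of Tbx19 and Pomc are shown because they join the lineage factor to the hormone gene that it drives. RefSeq entries for GRCm38.p6 were found for 6 of the 8 factors. The 250 bases before the annotated start are printed in the direction of the gene, with 2 kinds of motif in capitals: TAATTA, a core bound by LIM homeodomain proteins such as LHX3 and ISL1, and CANNTG, the E-box bound by bHLH proteins such as NEUROD1. TAATCC, the bicoid type motif bound by PITX1, was also sought, and each motif was sought on both strands, with no overlap among the matches shown. The Tbx19 window is chr1:165160774-165161023, minus strand, and the Pomc window is chr12:3954695-3954944, plus strand.
Tbx19: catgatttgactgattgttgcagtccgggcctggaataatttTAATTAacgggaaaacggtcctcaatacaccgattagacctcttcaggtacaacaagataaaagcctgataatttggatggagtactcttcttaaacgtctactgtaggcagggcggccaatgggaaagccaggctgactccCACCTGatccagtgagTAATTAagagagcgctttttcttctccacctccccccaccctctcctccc
Pomc: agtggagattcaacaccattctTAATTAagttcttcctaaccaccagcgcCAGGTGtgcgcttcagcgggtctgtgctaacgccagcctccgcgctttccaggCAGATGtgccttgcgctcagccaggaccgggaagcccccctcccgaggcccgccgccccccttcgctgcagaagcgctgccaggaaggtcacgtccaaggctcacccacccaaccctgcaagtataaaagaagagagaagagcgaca
The Tbx19 window held TAATTA at 208 and at 50 bases before the start, counted to the first base of the motif, and 1 E-box at 66 bases. The Pomc window held TAATTA at 228 bases and E-boxes at 200 and 147 bases. Of 32851 promoter windows of the same length, 4.84% held TAATTA, 6.25% held TAATCC and 66.2% held an E-box. The Isl1 window held 1 TAATCC and 1 E-box, and the Pax7 and Lhx4 windows held none of the 3 motifs. The Pax7 window (chr4:139832969-139833218) and the Lhx4 window (chr1:155742028-155742277) lie inside the spans of these genes given below. Each thus precedes an annotated start within the gene and not at its outer end. These matches are a description of the letters in a short window and were not related to binding.

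The levels of the factors covered a wide range in the dissected IL, and Lhx4 lay under the filter on low values. Divided by exon length, the mean log2 normalized expression per kb was 9.18 for Pax7 and 9.10 for Tbx19, 6.90 for Lhx3, 6.53 for Pitx1, 5.84 for Insm1, 5.0 for Isl1, 3.18 for Neurod1 and -0.12 for Lhx4. Pax7 and Tbx19 could not be ordered: Pax7 was above Tbx19 in 6 of 10 samples, with a mean difference of 0.08 ± 0.12 (SD, n = 10) in log2 level per kb. Every other neighbouring pair kept its order in 10 of 10 samples. The narrowest of these was Lhx3 above Pitx1, with a mean difference of 0.37 ± 0.28 (SD, n = 10).

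**Figure D1:**
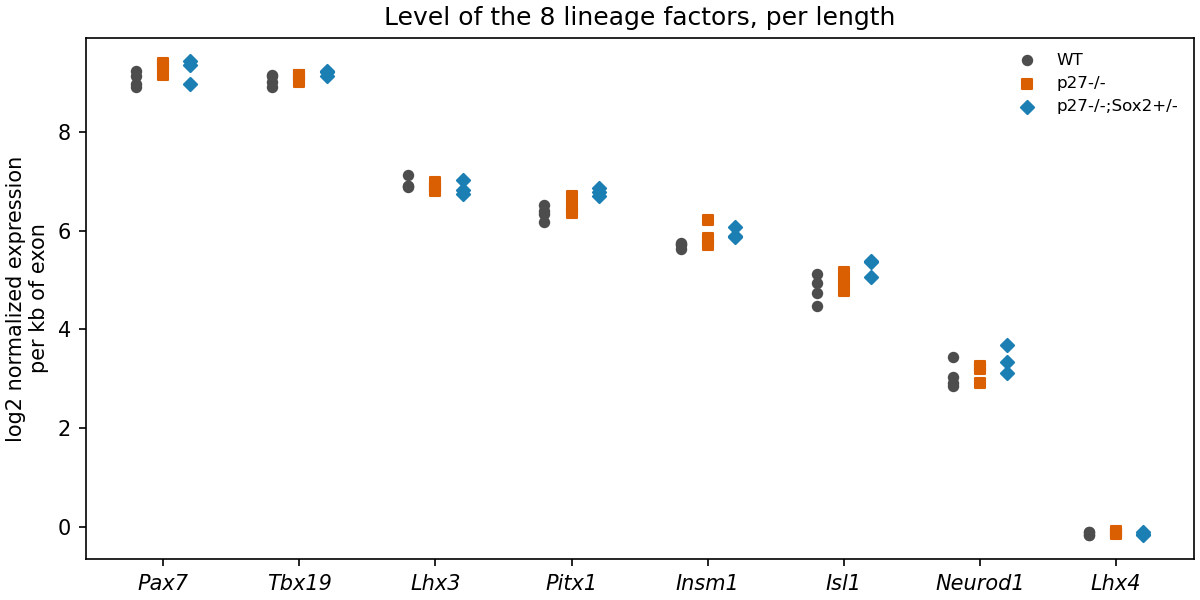
The log2 normalized expression per kb of exon (vertical axis) of the 8 factors in each of the 10 samples, with WT as circles, p27-/- as squares and p27-/-;Sox2+/- as diamonds. Pax7 and Tbx19 share the highest levels, with sample values from 8.90 to 9.41 and from 8.90 to 9.23, and Lhx4 lies below the rest, from -0.16 to -0.07.

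By the level of the deposited values, which are not divided by length, Pax7 ranked 256 and Tbx19 771 among the 29527 genes. Pomc ranked 4, Pcsk2 (which encodes the convertase that cuts POMC products into melanocyte-stimulating hormone) ranked 26, and Drd2 (the dopamine receptor that restrains melanotrophs) ranked 317. The defining markers of melanotrophs were thus among the most abundant transcripts of the tissue labelled as IL. Markers of the AL were present too: Prl, which encodes prolactin, had log2 levels of 13.09, 17.54, 12.55 and 11.40 in the WT samples. The summed level of 12 AL markers, on the linear scale, lay between 15537 and 223743 in WT, between 7306 and 96808 in p27-/- and between 11486 and 29537 in p27-/-;Sox2+/- samples. WT replicate 2 and p27-/- replicate 1 had the highest sums, most of which was Prl, at 17.54 and 16.34 on the log2 scale. They also had the highest mean log2 values of the 12 markers, centred over the samples, 1.17 and 0.33. Not every marker followed this order: Fshb was 7.26 in p27-/- replicate 1, below 9.61 and 9.64 in WT replicates 3 and 4. The sexes differed among these samples. Xist, a transcript of female cells, was 14.82 and 14.87 in WT replicate 2 and p27-/- replicate 1. It was 9.29 and 9.22 in WT replicates 3 and 4. Xist was also high in WT replicate 1 (14.32), p27-/- replicate 3 (15.01) and p27-/-;Sox2+/- replicates 2 and 3 (14.96 and 14.81). The levels of Prl and Fshb were not compared by sex. In RNA of a whole lobe, fewer cells of a type and less RNA per cell cannot be told apart.

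Cdkn1b, the targeted gene, was measured first as a check of the genotypes. Its log2 levels were 8.54, 8.85, 8.39 and 8.66 in WT, 8.27, 8.04 and 8.22 in p27-/-, and 8.10, 7.73 and 7.83 in p27-/-;Sox2+/- samples, so that every mutant sample was below every WT sample. Cdkn1b transcript was still counted in the null samples. The Cdkn1b call against WT was kept in p27-/-;Sox2+/- (limma, adjusted p = 0.00854) except without replicate 2 of that group, and in p27-/- (adjusted p = 0.047) it was lost without WT replicate 2 or 4 or without any of the 3 p27-/- samples, with adjusted p up to 0.175, and in 8 of 11 other settings. Sox2 levels were 7.34, 7.39, 7.75 and 7.34 in WT, 7.33, 7.45 and 7.08 in p27-/-, and 7.07, 6.88 and 7.04 in p27-/-;Sox2+/- samples, the last group lying below both others. Its log2 difference of -0.46 against WT did not pass the test (adjusted p = 0.0811).

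None of the 7 tested factors passed the test in any comparison. The test was limma on the log2 values of all 17268 tested genes, with Benjamini-Hochberg adjustment over all of them and a threshold of 0.05. In p27-/- against WT, 0 of 7 factors were called, where 7.78% of all tested genes were called, and 0 had an unadjusted p under 0.05. In p27-/-;Sox2+/- against WT, 0 of 7 were called beside 2.71% of all genes, and 2 (Pitx1 and Isl1) had an unadjusted p under 0.05. Between the mutants 0 of 7 were called beside 0.145% of all genes, and 1 (Pitx1) had an unadjusted p under 0.05. An unadjusted p under 0.05 was found for 4155, 3075 and 1148 of all 17268 tested genes in these 3 comparisons, in the order given. The comparisons with WT share the 4 WT samples and are given side by side. In p27-/- the median log2 difference of the 7 factors was 0.15, beside 0.00875 over all tested genes, and 6 of 7 differences were positive. In p27-/-;Sox2+/- the median was 0.24, beside 0.00981, and again 6 of 7 were positive.

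**Figure D2:**
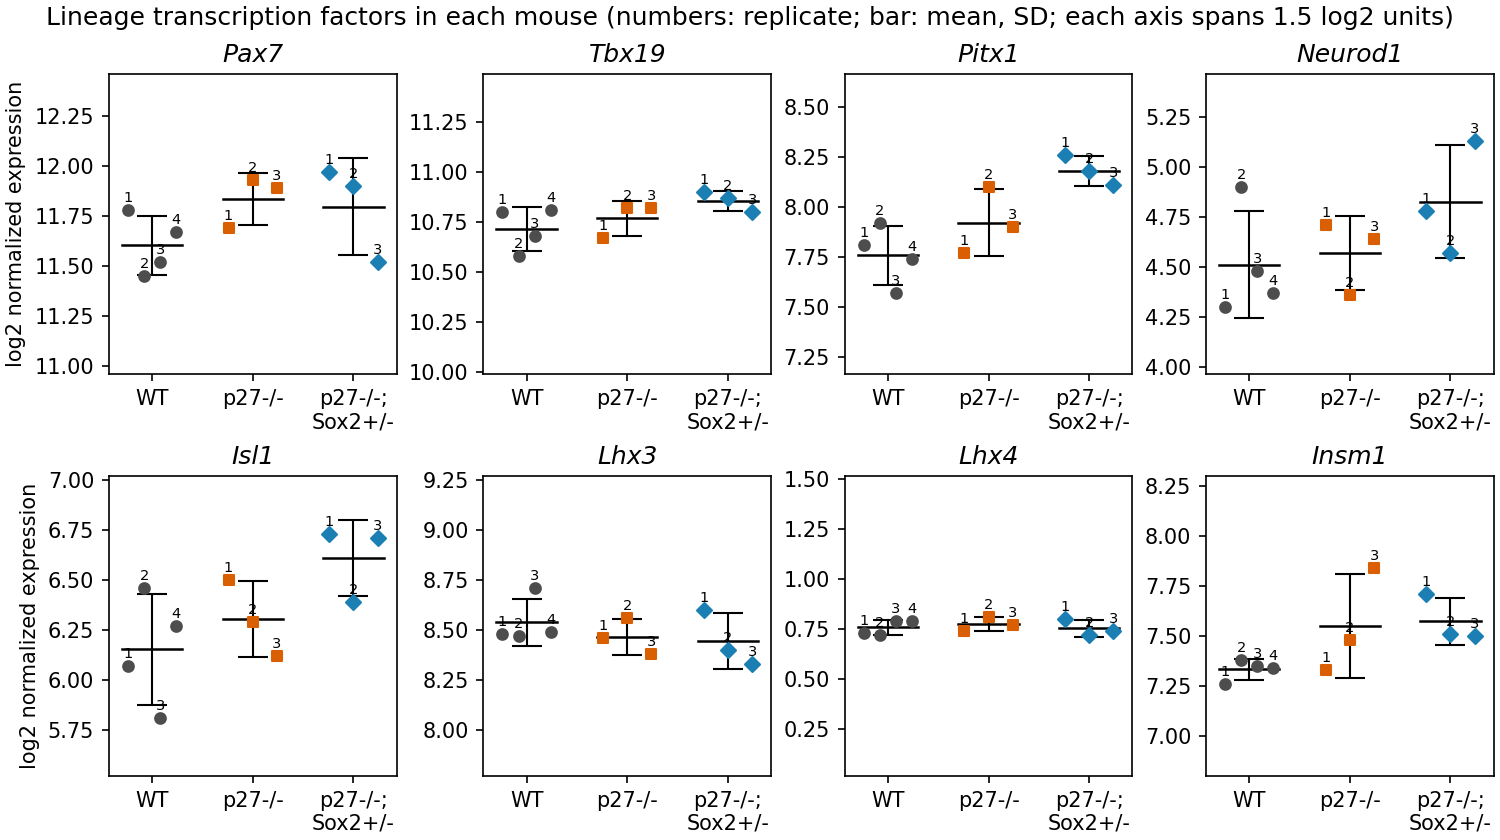
Log2 normalized expression (vertical axes, each spanning 1.5 units) of the 8 factors in every sample of the 3 genotypes, with the replicate number beside each point and the group mean and SD as bars. Pitx1 in the 3 p27-/-;Sox2+/- samples, from 8.11 to 8.26, lies above all other samples, while the groups overlap for Pax7, Tbx19, Neurod1, Isl1, Lhx3 and Lhx4.

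Pax7, the selector of the melanotroph fate, lies on chromosome 4 of GRCm38.p6 from 139737059 to 139833530. It had log2 levels of 11.78, 11.45, 11.52 and 11.67 in the WT samples, 11.69, 11.93 and 11.89 in the p27-/- samples, and 11.97, 11.90 and 11.52 in the p27-/-;Sox2+/- samples. All groups overlapped, and p27-/-;Sox2+/- replicate 3 was as low as WT replicate 3 while replicate 1 of that genotype was the highest of all. The log2 difference from WT was 0.23 in p27-/- (95% interval -0.02 to 0.48, adjusted p = 0.247) and 0.19 in p27-/-;Sox2+/- samples (-0.06 to 0.44, adjusted p = 0.417). Between the mutants it was -0.04 (-0.31 to 0.23, adjusted p = 0.996).

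Tbx19, the T-box activator of Pomc, lies on chromosome 1 from 165137834 to 165160773. Its levels were 10.80, 10.58, 10.68 and 10.81 in WT, 10.67, 10.82 and 10.82 in p27-/-, and 10.90, 10.87 and 10.80 in p27-/-;Sox2+/- samples. The whole range over 10 samples was thus narrow, and the genotypes overlapped. The SD within genotypes was 0.0906, smaller than that of 90.3% of the tested genes, whose median was 0.152. Tbx19 differed from WT by 0.06 in p27-/- (-0.12 to 0.24, adjusted p = 0.728) and by 0.14 in p27-/-;Sox2+/- samples (-0.04 to 0.32, adjusted p = 0.413), on the log2 scale. By RT-qPCR in IL of this age, the paper reports a significant decrease of Tbx19 in p27-/- but not in p27-/-;Sox2+/- mice. The sequencing values here did not show that decrease, and the reason was not tested.

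Pitx1, a homeodomain factor of the whole pituitary and a partner of TBX19 at Pomc, lies on chromosome 13 from 55825044 to 55836190. It had log2 levels of 7.81, 7.92, 7.57 and 7.74 in WT, 7.77, 8.10 and 7.90 in p27-/-, and 8.26, 8.18 and 8.11 in p27-/-;Sox2+/- samples. The 3 p27-/-;Sox2+/- samples were above all 7 others, the nearest being p27-/- replicate 2. Against WT the difference was 0.43 in p27-/-;Sox2+/- samples (0.19 to 0.67) and missed the threshold (adjusted p = 0.0582), and in p27-/- it was 0.16 (-0.08 to 0.40, adjusted p = 0.397). Between the mutants it was 0.26 (0.01 to 0.52, adjusted p = 0.72). Pitx1 and Insm1 were 2 of 7 factors whose p27-/-;Sox2+/- and WT samples did not overlap, both higher, where 15% of all tested genes did not overlap and 7.02% were higher without overlap. Between the mutants this held for 1 of 7, Pitx1, beside 15.3% of all genes and 7.51% higher without overlap, and in p27-/- against WT for 0 of 7, beside 20.6%. The call for Pitx1 against WT was gained with sample weights (adjusted p = 0.0276) and without WT replicate 2 (adjusted p = 0.0397), and its adjusted p was up to 0.27 in the other settings.

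Isl1, a LIM homeodomain factor that the AL also needs for its thyrotrophs, lies on chromosome 13 from 116298270 to 116309688. Its levels were 6.07, 6.46, 5.81 and 6.27 in WT, 6.50, 6.29 and 6.12 in p27-/-, and 6.73, 6.39 and 6.71 in p27-/-;Sox2+/- samples. The highest of WT and of p27-/- were again WT replicate 2 and p27-/- replicate 1, the samples with the most AL marker signal. In p27-/-;Sox2+/- samples the highest was replicate 1, which had the lowest AL marker sum of that group, 11486. The groups overlapped. The difference from WT was the largest of the 7 factors in p27-/-;Sox2+/- samples, 0.46 (0.12 to 0.81, adjusted p = 0.144), and in p27-/- it was 0.15 (-0.19 to 0.50, adjusted p = 0.602). Over 11 other settings, among them the mean of the AL markers as a covariate, the difference for p27-/-;Sox2+/- samples lay between 0.276 and 0.61. The adjusted p against WT (limma) lay between 0.0503 and 0.445 there.

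Lhx3, the LIM homeodomain factor that all hormone lineages of the pituitary pass through, lies on chromosome 2 from 26200212 to 26208249. Its levels were 8.48, 8.47, 8.71 and 8.49 in WT, 8.46, 8.56 and 8.38 in p27-/-, and 8.60, 8.40 and 8.33 in p27-/-;Sox2+/- samples. WT replicate 3 stood above the other WT samples, and the genotypes overlapped. Lhx3 had the only negative differences from WT among the 7, -0.07 in p27-/- (-0.28 to 0.15, adjusted p = 0.717) and -0.10 in p27-/-;Sox2+/- samples (-0.31 to 0.12, adjusted p = 0.653). Lhx4, its close relative with an embryonic role in the pituitary primordium, lies on chromosome 1 from 155698031 to 155751726 and was at the lower end of the table, with levels from 0.72 to 0.81 in all 10 samples. It did not pass the filter. A fit of all 29527 genes gave a difference of 0.02 in p27-/- (-0.05 to 0.08, adjusted p = 0.811) and -0.01 in p27-/-;Sox2+/- samples (-0.07 to 0.06, adjusted p = 0.949), on values that vary little at this level (SD within genotypes 0.0374).

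Neurod1, a bHLH factor, lies on chromosome 2 from 79452637 to 79456636 and was the least expressed of the tested factors. It had levels of 4.30, 4.90, 4.48 and 4.37 in WT, 4.71, 4.36 and 4.64 in p27-/-, and 4.78, 4.57 and 5.13 in p27-/-;Sox2+/- samples. The groups overlapped, with WT replicate 2 second only to p27-/-;Sox2+/- replicate 3. The difference from WT was 0.06 in p27-/- (-0.29 to 0.41, adjusted p = 0.86) and 0.31 in p27-/-;Sox2+/- samples (-0.03 to 0.66, adjusted p = 0.329). With the mean of the AL markers as a covariate the latter became 0.526 and passed the threshold (adjusted p = 0.0318), the only setting of those tried in which Neurod1 was called. Neurod4, its relative in AL precursors, named here after its values were seen, had its highest levels in the samples with the most AL signal, 6.74 in WT replicate 2 and 6.30 in p27-/- replicate 1, beside 4.44 to 5.16 in the other 8. Pou1f1, the factor of somatotrophs, lactotrophs and thyrotrophs, had 8.41 and 7.56 in these samples. It is itself in the AL marker list that picked them out, so its level there is no separate evidence. The part of AL cells in the Neurod1 and Isl1 levels was not tested beyond this covariate.

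Insm1, the zinc finger factor of endocrine cells, lies on chromosome 2 from 146221997 to 146225020. Its levels were 7.26, 7.38, 7.35 and 7.34 in WT, 7.33, 7.48 and 7.84 in p27-/-, and 7.71, 7.51 and 7.50 in p27-/-;Sox2+/- samples. The WT samples lay close together, all p27-/-;Sox2+/- samples were above them, and p27-/- replicate 1 fell among the WT samples while p27-/- replicate 3 was the highest of all. The difference from WT was 0.22 in p27-/- (-0.05 to 0.48, adjusted p = 0.303) and 0.24 in p27-/-;Sox2+/- samples (-0.02 to 0.51, adjusted p = 0.325).

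The spread between samples set how small a difference could be called. At the p of the last gene called in p27-/- against WT, a log2 difference of 0.29 for Tbx19, 0.41 for Pax7 and up to 0.56 for Neurod1 would have passed. In p27-/-;Sox2+/- against WT the range over the factors was 0.34 to 0.64, and Pitx1 needed 0.44. Between the mutants it was 0.50 to 0.96. Smaller observed differences in these factors would not have passed in this fit, with 3 or 4 samples a group. These values are not limits on the true differences. In p27-/-;Sox2+/- against WT smaller ones were called in other settings, Pitx1 at 0.404 with sample weights and Neurod1 at 0.526 with the AL marker mean as a covariate.

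**Figure D3:**
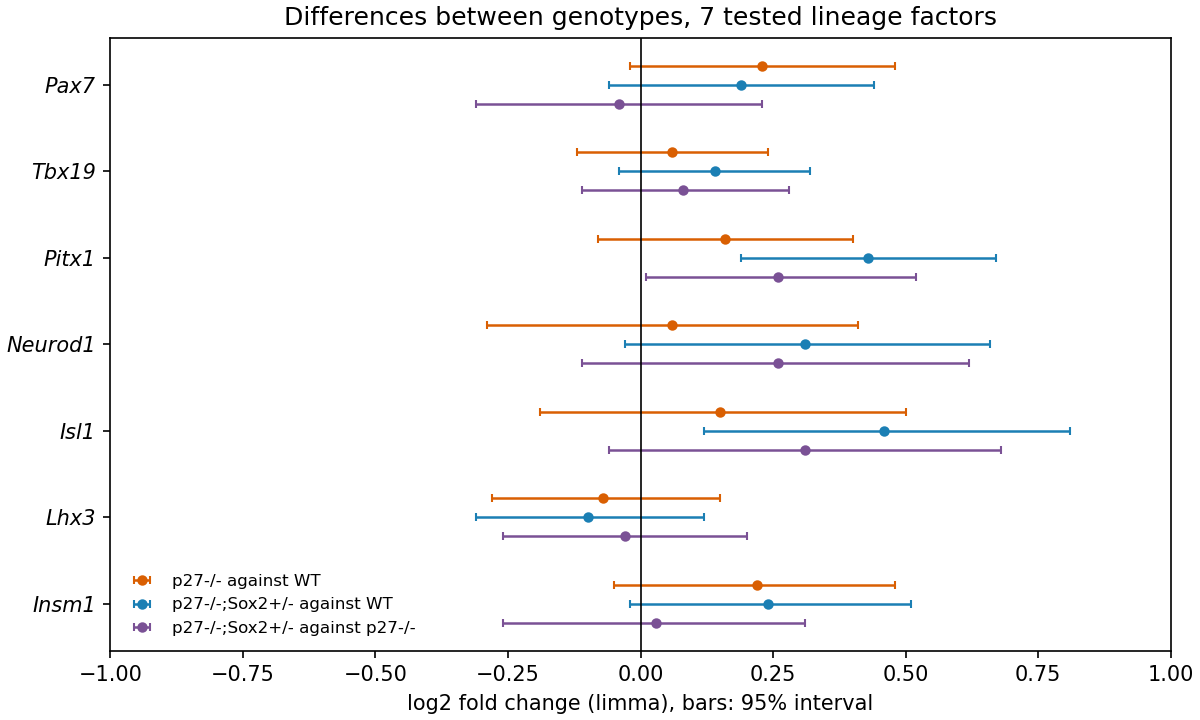
Log2 fold change from limma (horizontal axis) of the 7 tested factors in the 3 comparisons, with 95% intervals as bars. The intervals of Pitx1 (0.19 to 0.67) and Isl1 (0.12 to 0.81) in p27-/-;Sox2+/- against WT and of Pitx1 between the mutants (0.01 to 0.52) exclude 0 before adjustment, and all others include it.

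Of 7 targets that make, cut, store or control POMC, Pcsk2 rose and Pcsk1 fell in p27-/-, and Pcsk1 and Pam fell in p27-/-;Sox2+/- against WT, while 5 of 7 did not pass in each of these comparisons, where 7.78% and 2.71% of all tested genes were called, and 7 of 7 did not pass between the mutants, where 1 had an unadjusted p under 0.05. Between the mutants 1148 of all 17268 tested genes had such a p. Pomc itself had levels of 19.00, 18.28, 18.57 and 18.00 in WT, 18.57, 18.99 and 18.76 in p27-/-, and 18.35, 18.41 and 18.54 in p27-/-;Sox2+/- samples. The WT samples, from 18.00 to 19.00, spanned both mutant groups. Pomc differed from WT by 0.31 in p27-/- (-0.19 to 0.81, adjusted p = 0.454) and by -0.03 in p27-/-;Sox2+/- samples (-0.53 to 0.47, adjusted p = 0.962). Between the mutants it differed by -0.34 (-0.87 to 0.20, adjusted p = 0.945), with every p27-/-;Sox2+/- sample below every p27-/- sample. By RT-qPCR in IL of this age, the paper reports Pomc below WT in both mutants, which the sequencing values here did not show.

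Pcsk2 had levels of 14.10, 13.60, 13.87 and 13.46 in WT, 14.10, 14.39 and 14.38 in p27-/-, and 13.78, 13.92 and 13.90 in p27-/-;Sox2+/- samples. The lowest p27-/- sample equalled the highest WT sample to 2 decimals and lay just above it. The rise in p27-/- was 0.53 (0.23 to 0.83, adjusted p = 0.0352), and it lost its call without WT replicate 2, 3 or 4 or p27-/- replicate 2 or 3, with adjusted p up to 0.14. It was also lost in 4 of 11 settings, among them the AL marker mean as a covariate (0.42, adjusted p = 0.081). In p27-/-;Sox2+/- samples the difference was 0.11 (adjusted p = 0.738), and between the mutants it was -0.42 (adjusted p = 0.512), so that a difference between the responses did not pass its own test.

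Pcsk1 encodes the convertase that cuts POMC to adrenocorticotropic hormone and its companion fragments. It had levels of 9.10, 9.04, 8.98 and 9.00 in WT, 8.64, 8.66 and 8.43 in p27-/-, and 8.39, 8.66 and 8.78 in p27-/-;Sox2+/- samples, with every mutant sample below every WT sample. It fell by 0.45 on the log2 scale in p27-/- (adjusted p = 0.0206) and by 0.42 in p27-/-;Sox2+/- samples (adjusted p = 0.0498). The first call was lost without p27-/- replicate 3 (adjusted p = 0.112), and the second without any sample of either group except p27-/-;Sox2+/- replicate 3, with adjusted p up to 0.181, and these calls were lost in 2 and 7 of 11 settings. Pam, which encodes the enzyme that amidates peptide hormones, had levels of 11.40 to 11.74 in WT and of 11.09 to 11.23 in p27-/-;Sox2+/- samples, with no overlap, and fell by 0.42 (adjusted p = 0.0301). That call was lost without WT replicate 3 or any of the 3 p27-/-;Sox2+/- samples, with adjusted p up to 0.112, and in 2 of 11 settings. Cpe (carboxypeptidase E), Scg5 (the chaperone of the PCSK2 protein) and Drd2 passed in no comparison, and Drd2 differed from WT by 0.03 in both mutants.

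None of 10 genes of the secretory granule, such as Chga, Chgb and Scg2, passed in any comparison (limma, lowest adjusted p = 0.108), and an unadjusted p under 0.05 was found for 1 of them in p27-/- and for 2 in p27-/-;Sox2+/- against WT, and for 2 between the mutants. Their median log2 difference from WT was 0.15 in p27-/- and -0.08 in p27-/-;Sox2+/- samples.

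Among 27 tested factors that act elsewhere in pituitary development, 1 rose and 1 fell in p27-/- against WT, beside 7.78% of all tested genes, with a median difference of 0.01. Six2, a homeodomain factor of the sine oculis family, fell by 0.64 in p27-/- (adjusted p = 0.0114), and lost its call only without p27-/- replicate 2 among the samples left out. Prrx1, a paired-related homeodomain factor of mesenchyme and pituitary progenitors, rose by 0.48 (adjusted p = 0.0135, up to 0.0716 without p27-/- replicate 2 or 3, where the call was lost).

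Of 8 tested neuroendocrine factors, Myt1, a zinc finger factor of neurons and endocrine cells, rose by 0.52 in p27-/- (adjusted p = 0.0101, lost without p27-/- replicate 3 at 0.066), which makes 1 of 8 called beside 7.78% of all tested genes. The other 7 did not pass there, and none of the 8 passed in the other comparisons (limma, lowest adjusted p = 0.173 against WT and 0.493 between the mutants, with 2 of 8 at an unadjusted p under 0.05 in each). In these 2 comparisons 3075 and 1148 of all 17268 tested genes had such a p.

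The factors work through cofactors, and of 28 tested, 3 rose in p27-/- and 1 in p27-/-;Sox2+/- against WT, beside 7.78% and 2.71% of all tested genes, with none lower and none called between the mutants, where 3 of 28 had an unadjusted p under 0.05. Between the mutants such a p was found for 1148 of all 17268 tested genes. Lmo3, a LIM-only protein that shares its partner LDB1 with LHX3 and ISL1, had levels of 8.86, 8.91, 8.93 and 8.79 in WT, 9.53, 9.42 and 9.22 in p27-/-, and 9.26, 9.63 and 9.47 in p27-/-;Sox2+/- samples. Every mutant sample was above every WT sample. Lmo3 rose by 0.52 in p27-/- (adjusted p = 0.00966) and by 0.58 in p27-/-;Sox2+/- samples (adjusted p = 0.0105), and lost its call without p27-/- replicate 1 (0.0506) and without p27-/-;Sox2+/- replicate 2 (0.0772).

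Id2, which encodes an inhibitor that takes E proteins away from bHLH factors such as NEUROD1, had levels of 7.61, 8.06, 7.89 and 7.70 in WT, 8.69, 8.65 and 8.43 in p27-/-, and 7.84, 8.13 and 8.22 in p27-/-;Sox2+/- samples. The p27-/- samples stood above all others, and the p27-/-;Sox2+/- samples overlapped with WT. It rose by 0.77 in p27-/- (0.50 to 1.05, adjusted p = 0.0039), and this call held in all 11 other settings and with each of 7 samples left out. Rcor1, a corepressor that binds LSD1 and INSM1, rose by 0.36 (adjusted p = 0.044) and lost its call in 8 of 11 settings and without any of 6 of the 7 samples, all but WT replicate 2. Ldb1, the bridge between LIM homeodomain factors, differed from WT by 0.16 and 0.24 in the mutants, neither past the threshold.

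Of 9 tested relatives of the factors, 2 fell in p27-/- and 1 fell in p27-/-;Sox2+/- against WT, beside 7.78% and 2.71% of all tested genes called. Tbx20, a T-box factor, fell by 0.54 (adjusted p = 0.027) and by 0.56 (adjusted p = 0.0378). Pax6, a paired box factor of the early pituitary, fell by 0.45 in p27-/- (adjusted p = 0.0388). Tbx20 lost its call in p27-/- without WT replicate 3 or p27-/- replicate 1 or 3, and in p27-/-;Sox2+/- samples without WT replicate 1 or 3 or any sample of that group. Pax6 lost its call without WT replicate 1, 2 or 4 or p27-/- replicate 1 or 3. The highest adjusted p among these was 0.151. Over the settings Pax6 lost its call in 6 of 11, and Tbx20 in 2 of 10 in p27-/- and 5 of 10 in p27-/-;Sox2+/- samples.

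**Figure D4:**
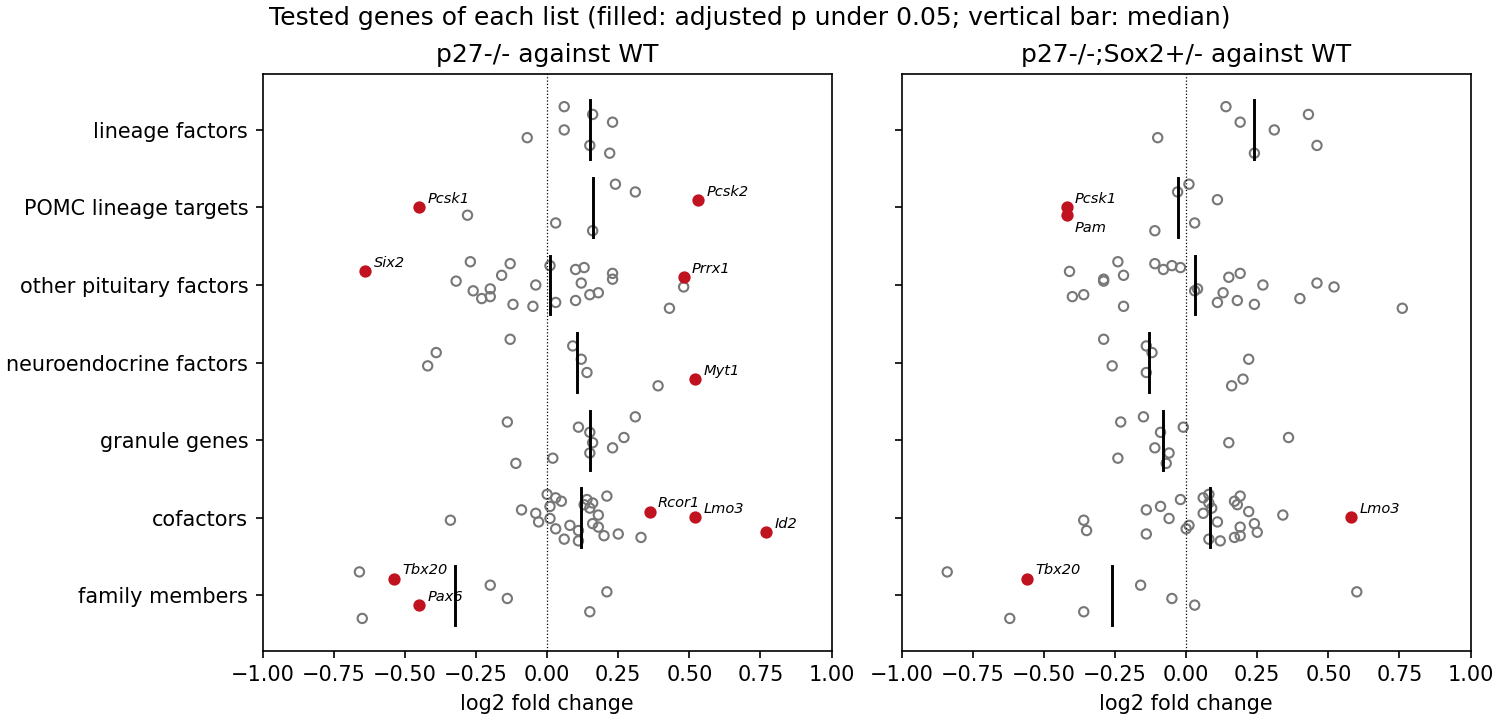
Log2 fold change (horizontal axes) of the tested genes of 7 lists in p27-/- and in p27-/-;Sox2+/- against WT, less 2 genes not reported here, with genes past the threshold filled and named and the median of the genes drawn as a vertical bar. The lineage factors hold no filled point, with medians of 0.15 and 0.24, while Id2 at 0.77 in p27-/- and Lmo3 at 0.58 in p27-/-;Sox2+/- are the highest called genes of the lists drawn.

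Markers of dividing cells were higher in the mutants: all 9 tested proliferation markers were called in p27-/- against WT, beside 7.78% of all tested genes. In p27-/-;Sox2+/- against WT all 9 differences were positive and 2 (Mki67 and Top2a) were called, beside 2.71%. Between the mutants all 9 were lower in p27-/-;Sox2+/- samples and 0 were called, beside 0.145%. In each of the last 2 comparisons 8 of 9 had an unadjusted p under 0.05 (limma), beside 3075 and 1148 of all 17268 tested genes. The summed level of the 10 posterior lobe markers was 1492 to 6104 in WT, 2138 to 2348 in p27-/- and 1568 to 5191 in p27-/-;Sox2+/- samples, and all 10 had a negative difference from WT in both mutants, though only Vim passed the test, in p27-/-. With the mean of these markers as a covariate, 0 of the 7 factors were called in p27-/- or in p27-/-;Sox2+/- against WT. The same covariate lowered the count of all called genes to 371 and 109. The calls of Pcsk1, Pcsk2, Prrx1, Myt1, Lmo3, Rcor1, Tbx20, Pax6, Cdkn1b, Vim, Kdr, Lum, Pdgfra and Fshb in p27-/- were lost with it, while Six2, Id2 and Crhr1 kept theirs. The log2 differences under it were -0.42 for Pcsk1, 0.58 for Pcsk2, 0.454 for Prrx1, 0.494 for Lmo3 and -0.429 for Pax6, close to those without it, and -0.317 for Vim, beside -0.60 without it. Vim is itself 1 of the 10 markers averaged in this covariate, so its change under the covariate is no separate evidence. Lum (-0.562) and Pdgfra (-0.378) also shrank, both from -0.75. Myt1 (0.438), Rcor1 (0.297), Tbx20 (-0.496), Kdr (-0.678) and Fshb (-1.796) were smaller in size than without it, and Cdkn1b (-0.527) was larger. In p27-/-;Sox2+/- samples Pcsk1 (-0.382), Pam (-0.432), Lmo3 (0.554), Tbx20 (-0.518), Mki67 (1.186, adjusted p = 0.0652) and Top2a (1.061, adjusted p = 0.0791) lost their calls, as did Kdr and Fshb. Top2a was also lost there under the replicate block and without p27-/-;Sox2+/- replicate 1 or 3.

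Markers of other cells had mostly negative differences from WT. Of all tested genes, 51.6% had a positive difference in p27-/- and 52.1% in p27-/-;Sox2+/- samples, and 7.78% and 2.71% were called. Of 10 vascular and stromal markers 9 had a negative difference from WT in both mutants, with Kdr, Lum and Pdgfra called in p27-/- and Kdr in p27-/-;Sox2+/- samples. Of 9 tested stem cell markers 9 were negative in p27-/-, with Cdh1 called, and 8 in p27-/-;Sox2+/- samples, with Cpxm2 called. Sox2 itself is on this list, and its dosage was lowered by genotype in p27-/-;Sox2+/- mice. Its negative difference there therefore cannot be read as a measure of stem cell content. Melanotrophs also express SOX2, as the paper states. All 7 tested immune markers were negative in both mutants, with none called (limma, lowest adjusted p = 0.125). An unadjusted p under 0.05 was found for 0 of 7 in p27-/- and 2 of 7 in p27-/-;Sox2+/- samples. Over all 17268 tested genes such a p was found for 4155 and 3075. Fshb, which marks gonadotrophs, fell by 2.04 in p27-/- and by 2.27 in p27-/-;Sox2+/- samples, with overlap. Of these calls, Cdh1 and Cpxm2 were kept in all 11 settings but were each lost without 1 sample, p27-/- replicate 3 and p27-/-;Sox2+/- replicate 2, and the others were lost in 1 or more settings and without 1 or more samples. The part of these cells in the levels of the lineage factors was not tested.

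Crhr1, the receptor for corticotropin-releasing hormone on corticotrophs and listed as an AL marker, had levels of 5.59, 5.39, 5.58 and 5.62 in WT, 4.75, 4.87 and 4.62 in p27-/-, and 5.31, 5.53 and 5.40 in p27-/-;Sox2+/- samples. The p27-/- samples were below all others. Crhr1 fell by 0.80 in p27-/- (adjusted p = 0.00146), a call kept in all 10 settings that tested it and with each sample left out, and it was higher by 0.67 in p27-/-;Sox2+/- than in p27-/- samples (adjusted p = 0.0491), a call lost without any 1 of the 6 mutant samples and in 8 of 10 settings. The AL marker mean, the covariate of 1 of these settings, includes Crhr1 itself and is no separate check.

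**Figure D5:**
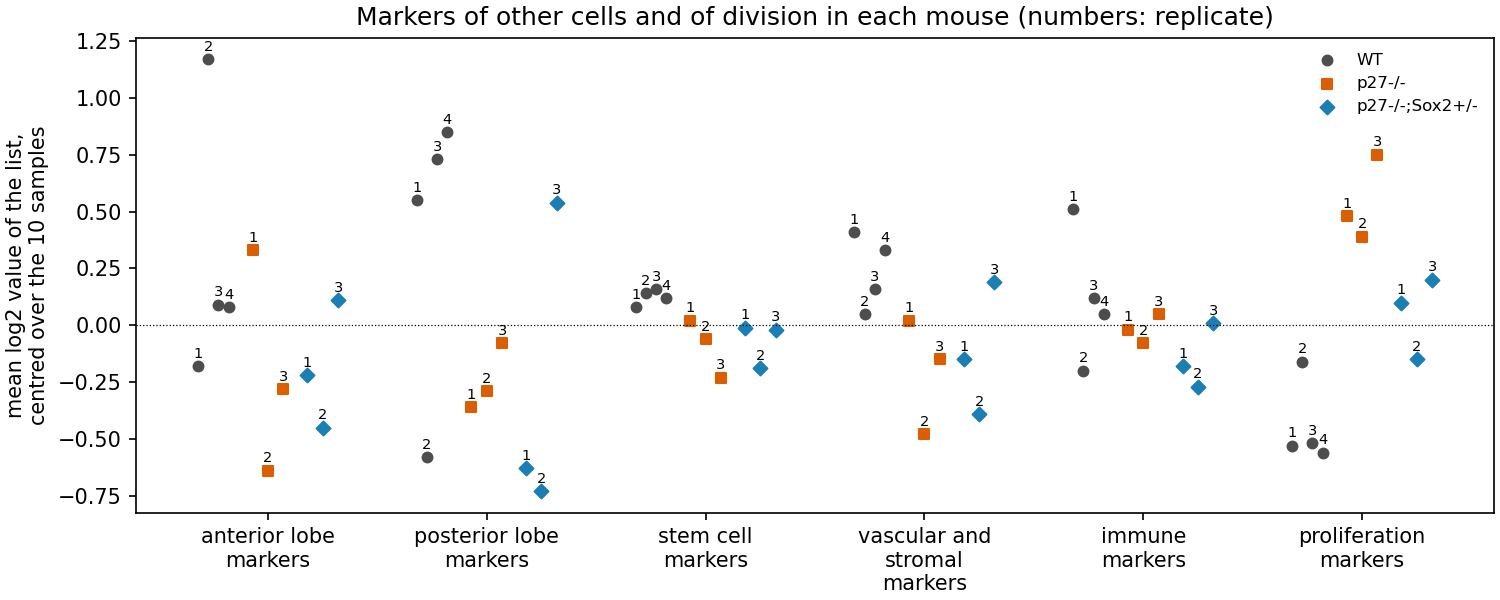
Mean log2 value of each marker list (vertical axis), centred over the 10 samples, in each sample, with replicate numbers. WT replicate 2 has the highest mean of AL markers (1.17) and a low mean of posterior lobe markers (-0.58), and the p27-/- samples have the highest means of proliferation markers (0.39 to 0.75).

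The genes whose levels ran most like each factor over the 10 samples are given as a description, since samples of 1 genotype, sex or dissection vary together. For Pax7 they were 2610318N02Rik (r = 0.98, Spearman rho = 0.98), Taok2 (r = 0.97, rho = 0.95) and Pias3 (r = 0.95, rho = 0.98). Without the 2 samples farthest from the median of Pax7 their r was 0.96, 0.95 and 0.93, and after centring within genotypes 0.98, 0.96 and 0.95. For Tbx19, Sox12 (r = 0.93) and Galnt9 (r = 0.90) were among the 3 most alike, with r of 0.91 and 0.70 without the 2 samples.

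Pitx1 ran most like Cdkn2b, which encodes the kinase inhibitor P15 (r = 0.96, rho = 0.95, and 0.88 within genotypes), and like the unnamed loci Gm15510 and Gm4285 (r = 0.95 each). Neurod1 ran most like Cstf2t (r = 0.93), Isl1 like Stard6 (r = 0.94), Lhx3 like Syngr2 (r = 0.93) and Insm1 like Qtrt1 (r = 0.92). Without the 2 samples farthest from the median of the factor these were 0.85, 0.87, 0.88 and 0.84. The highest of many correlations, over the 14854 tested genes with a symbol, is chosen for its height, and no p is attached to it.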

How the data were processed

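Total RNA of dissected IL was sequenced by the authors on a HiSeq4000 (Ovation RNA-seq System V2), aligned with STAR 2.5.2a, counted with RSEM 1.3.30 and normalized with DESeq2 1.18.1, as their notes and methods state. The values deposited by the authors are log2 expression values, 1 column per sample. Which transformation gave them is not given in the sources used here. Fold changes are differences of these log2 values and need not equal those from counts. Log2 values do not show how deeply a sample was sequenced.

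Samples were grouped by labelled genotype. The filter kept genes whose mean log2 value reached 3.32, the log2 of 10. They were tested with limma 3.58.1 in R 4.3.3 (mean-variance trend, 3 genotypes in 1 fit, no covariates, Benjamini-Hochberg adjustment, threshold 0.05), and the model was tested on simulated data. Symbols were found for 22709 of 29527 gene identifiers. Exon lengths came from GENCODE M1, positions from RefSeq on GRCm38.p6. Levels per kb used the exons of all transcripts joined. Motifs were counted in RefSeq promoter windows with Python 3.11.15. P-values measure the spread between mice of 1 study.

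Named were the 8 factors, Cdkn1b, Sox2, all POMC lineage targets, up to 5 called genes per other list and comparison with the smallest p, markers whose level is given, and the genes with the highest r for each factor. The factors and lists were chosen with earlier results of these data known. Alternatives were no filter, a mean of at least 50, only the groups compared, no trend, sample weights, quantile normalization, centring on the median, a block for the replicate number, Xist or a lobe's marker mean as a covariate, and each sample left out. A few genes that these rules would name are not reported here.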

Additional observations from a re-analysis of the deposited data

Results flagged for a closer look

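Of 24 measures examined in the 4 WT samples, 3 had a sample far from the others, where chance gives about 1 in 20. Lhx3 was at 8.71 in WT replicate 3 and between 8.47 and 8.49 in the other WT samples, a gap of 0.935 of the whole WT range. Without that sample, the log2 difference of Lhx3 from WT was -0.012 in p27-/- and -0.041 in p27-/-;Sox2+/- samples, again not past the threshold. Sox2 was highest in the same WT sample, at 7.75 beside 7.34 to 7.39 (0.885 of the range). The centred mean of the proliferation markers was -0.16 in WT replicate 2 and between -0.56 and -0.52 in the others (0.9 of the range), and WT replicate 2 was also the sample with the most AL marker signal. The causes were not tested.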

How the results depend on the processing

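Of the values of the factors under alternatives, 353 kept their direction and side of the threshold, 3 gained a call and 12 changed sign. The calls gained were in p27-/-;Sox2+/- against WT, 1 factor each with sample weights and without WT replicate 2 (Pitx1) and with AL markers as a covariate (Neurod1). Leaving out samples, 0 to 1 factors were called there. The sign changes were as follows. For Tbx19 in p27-/- against WT the difference became -0.011 with quantile normalization and -0.017 with AL markers. For Neurod1 it lay between -0.012 and 0.190 with a sample left out. Between the mutants it became -0.031 for Insm1 with sample weights and lay between -0.082 and 0.169 with a sample left out, between -0.125 and 0.097 for Pax7 and between -0.107 and 0.028 for Lhx3. Pomc in p27-/-;Sox2+/- against WT became 0.075 with sample weights and 0.034 with posterior lobe markers, and lay between -0.186 and 0.148 with a sample left out.

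Counts of all called genes depended more on the settings. In p27-/- against WT (1343) the count was 831 with no filter, 807 with only the groups compared, 371 with posterior lobe markers and 402 to 1707 with a sample left out. In p27-/-;Sox2+/- against WT (468) it was 260 with only the groups compared, 1240 with sample weights, 109 with posterior lobe markers and 79 to 656 with a sample left out. Between the mutants (25) it was 6 with no filter, 45 with only the groups compared, 8 with no trend, 283 with sample weights, 15 with quantile normalization and 0 to 4 with a sample left out. The causes were not tested.

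Deviations from the genotype mean correlated from -0.238 to 0.182 between samples of the same number, and from -0.191 to 0.265 between samples of different number. With so few mice this cannot show whether litters or batches pair the samples. The replicate number as a block gave 595, 209 and 2 called genes in the 3 comparisons and called 0 factors. A mean of at least 50 left Neurod1 out. Depth cannot be judged from log2 values, and 3 or 4 samples a group limit the precision.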
